A study of Homo sapiens with 4 samples.

Results

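AKT1 is the gene that the transfected plasmids of this RIP-seq experiment carry, and its reads were followed through the deposited peak lists. Every peak that overlapped the AKT1 gene span by at least 1 bp was taken, with either strand label. There were 5 such peaks among 4838 in the list for Flag-AKT1 E17K (below, the E17K list) and 0 among 808 in that for Flag-AKT1 WT (the WT list), 5 of 5646 in all. The span on chromosome 14 runs from 104769349 to 104795748 in the RefSeq annotation of GRCh38.p14, and the gene lies on the minus strand.

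The cells were MDA-MB-231, a mesenchymal breast cancer line, given a plasmid for Flag-tagged wild-type AKT1 or for the Flag-tagged E17K mutant. Each plasmid had 1 library of RNA immunoprecipitated with anti-Flag antibody and 1 library of its input, 4 libraries in all, and the kit used removes ribosomal RNA. With 1 library per condition there is no replicate check, and a test on these reads compares libraries and not conditions. Promoter, vector and dose of the plasmids and the time after transfection are not given in the sources used here.

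The AKT kinases sit near the middle of signalling from growth factor receptors. Lipids made by PI3K recruit AKT to the plasma membrane through its pleckstrin homology (PH) domain. There PDK1 and mTORC2 phosphorylate it, and protein phosphatase PP2A acts in the opposite direction. E17K is a substitution in the PH domain that raises its affinity for membrane lipids and keeps the kinase active. In an immunoprecipitation of Flag-AKT1, the AKT1 messenger RNA is the transcript that the experiment itself supplied, in addition to the cell's own copy, whereas the other RNAs come from the cell only.

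For each peak the lists give the number of reads from the immunoprecipitate and from an unnamed control. It was read here as the input, since the labels of the libraries name input and immunoprecipitate, but the protocol also mentions control IgG. Were the control an IgG precipitate, each fold and each control count below would be relative to that instead. Outside AKT1 the E17K list held 411089 immunoprecipitate and 199529 control reads, and the WT list held 51123 and 52223 in total. Totals of the libraries are not in the lists, so depth is known only inside peaks and a fold (immunoprecipitate reads over control reads) has no scale between lists. The processing notes name hg18, but the coordinates were read as GRCh38. In the E17K list 98.9% of the peaks overlapped a GRCh38 gene span. Of the 3220 peaks in that list that lay in protein-coding genes of a single strand, 3208 (99.6%) had the label opposite to the gene. The 5 AKT1 peaks, labelled plus on a minus-strand gene, followed the same rule. Of 5 mesenchymal and basal markers of the line (VIM, CD44, CAV1, EGFR and AXL), 5 had a peak in the E17K list. CD44 and CAV1 had 1 peak each, with 39 and 27 immunoprecipitate reads. Of 7 luminal markers (ESR1, PGR, GATA3, FOXA1, KRT8, KRT18 and EPCAM) 0 had one. However, all 5 of the former but only 3 of these 7 are known to lie on a strand label with 10 peaks or more. The share of all genes with a peak on those labels is not given here, so whether these counts differ from it is not known. None of the 12 markers had a peak in the WT list, where 0 of the 5 and 2 of the 7 lie on a label with 10 peaks or more.

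AKT1 had the most reads of any gene in the E17K list, in the immunoprecipitate and in the control alike. Its 5 peaks held 73374 immunoprecipitate and 48883 control reads. This was 15.1% of all immunoprecipitate reads in peaks (95% Wilson interval 15.0% to 15.2%) and 19.7% of all control reads (19.5% to 19.8%), on 0.0629% of the summed peak width. The intervals cover counting error only. The immunoprecipitate reads of AKT1 were as many as those of the 2910 other peaks with the fewest reads put together, 60.2% of the peaks outside AKT1. The gene with the next most reads, AHNAK, which encodes a very large scaffold protein, had 5203, so AKT1 had 14.1 times as many.

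The peaks are numbered here from the 3′ end of the gene towards its start. Peak 1, from 104770201 to 104770400, held 9686 immunoprecipitate and 6801 control reads. Peak 2, from 104770601 to 104771000, held 18307 and 13668. Peak 3, from 104772801 to 104773200, held 19041 and 12731, the most immunoprecipitate reads of any peak in the list. All 3 lie in the part of the gene nearest its 3′ end. Peak 4, from 104773401 to 104773600, held 7895 and 4652 reads. Peak 5, from 104774801 to 104775200, held 18445 and 11031. Reads rose with width, since peaks 1 and 4 were 200 bp wide and the others 400 bp.

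Per kb of peak, the control varied more over the 5 listed peaks than the immunoprecipitate. Immunoprecipitate reads per kb were 48430, 45768, 47603, 39475 and 46113 from peak 1 to peak 5, so the highest was 1.23 times the lowest. Control reads per kb were 34005, 34170, 31828, 23260 and 27578, with the highest 1.47 times the lowest. Peak 4 was the lowest in both libraries. The filter that listed the peaks is not given, and no peak on this strand label held fewer than 7895 immunoprecipitate reads. Stretches of the gene with a lower immunoprecipitate may thus be missing. Whether this narrowed the range of the immunoprecipitate was not tested. These values depend on how much of each peak is exon, which was not measured. Reads per kb, here and between genes below, therefore describe the listed peaks and not transcript levels. Only the ratio of both libraries is free of this.

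**Figure D1:**
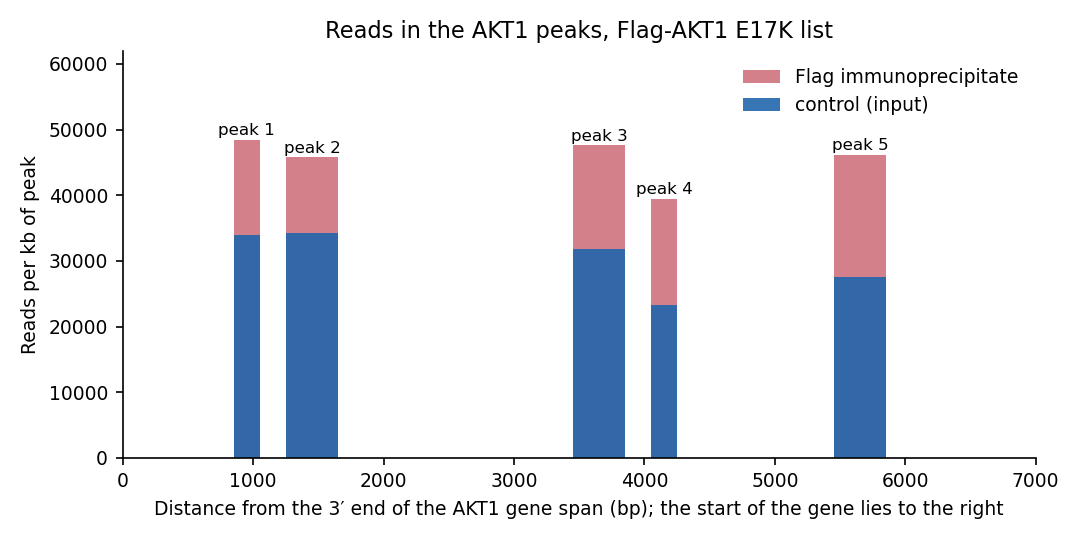
Reads per kb of peak (y axis) in the 5 AKT1 peaks of the E17K list against the distance in bp from the 3′ end of the gene span (x axis), with the immunoprecipitate in red behind the control in blue, both drawn from 0, 1 library each. The immunoprecipitate stands between 39475 and 48430 reads per kb in every peak, and the control falls from about 34005 in peak 1 to 23260 in peak 4 and 27578 in peak 5.

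The listed peaks covered only the 3′ part of the gene. Peak 1 began 852 bp from the 3′ end of the span and peak 5 ended 5852 bp from it. Together they covered 1600 bp, or 6.06% of the span. Between them lay gaps of 200, 1800, 200 and 1200 bp. The widths and starts follow a grid of 200 bp on this strand label, so the edges are no finer than that. The 20548 bp on the start side, 77.8% of the span, held no peak, and neither did the 2 start sites that the promoter table lists, at 104795748 and 104793601, which lie 20548 and 18401 bp from peak 5. No peak with fewer than 7895 immunoprecipitate reads is listed on this label, so a stretch without a peak may still hold reads. The PH domain with residue 17 is encoded towards the start of the coding sequence. Exon boundaries of AKT1 were not available in the tables used here, so the peaks were not assigned to coding exons, introns or untranslated regions, and the distance from the mutated codon was not measured. The neighbouring lncRNA gene LOC102723342 overlaps the last bases of the span, from 104769349 to 104769416, and none of the 5 peaks reaches it. The reads of a plasmid and of the endogenous gene are not separated in the lists, nor are those with and without the mutation.

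In the E17K list the peaks of other genes were lower. Outside AKT1 the highest of them per kb lay in ANXA2, which encodes the membrane-binding protein annexin A2, with 6190 immunoprecipitate reads per kb. It was followed by the ribosomal protein gene RPL4 with 5271 and by the pyruvate kinase gene PKM, with 4576 in one peak and 4173 in another. The lowest AKT1 peak was 6.38 times the ANXA2 peak in the immunoprecipitate and 6.48 times the highest other peak in the control. It was 386 times the median of 102 immunoprecipitate reads per kb outside AKT1. That ratio also depends on which peaks were listed. Other strand labels list peaks down to 11 immunoprecipitate reads, and the plus label of chromosome 14 none below 7895. The AKT1 peaks held ranks 1 to 5 of the list in both libraries.

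These peaks were among the 5 most like AKT1, by the distance in log2 reads per kb of immunoprecipitate and control (1 library of each). AKT1 was above all other peaks in both libraries, so the nearest peaks are largely the highest ones and this repeats the ranking above. The nearest, ANXA2, was still 4.23 log2 units away, and the lower PKM peak 5.18. Their folds were 1.72 for ANXA2, 1.80 for RPL4, and 1.66 and 1.97 for PKM. All lie on the plus label of chromosome 15.

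**Figure D2:**
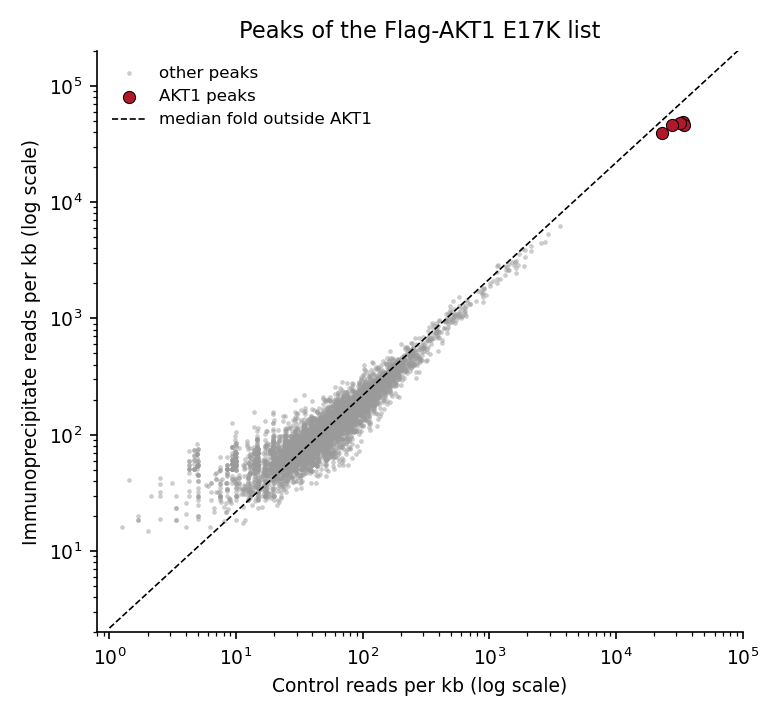
Immunoprecipitate reads per kb (y axis, log scale) against control reads per kb (x axis, log scale) for the peaks of the E17K list with at least 1 control read, with the 5 AKT1 peaks in red, the other peaks in grey and the median fold outside AKT1 (2.18) as a dashed line. The AKT1 peaks stand apart at the upper right and lie below the dashed line.

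Relative to the other peaks, AKT1 took a smaller share of the immunoprecipitate than of the control. Its fold over all 5 peaks was 1.50 (interval 1.48 to 1.52), whereas the reads of all other peaks gave 2.06 (2.05 to 2.07), so AKT1 stood at 0.729 of the rest. By peak the folds were 1.42, 1.34, 1.50, 1.70 and 1.67 from peak 1 to peak 5. Each of the 5 peaks had a lower ratio of immunoprecipitate to control reads than the remaining peaks together. This was Fisher's exact test, two-sided, comparing the libraries, with Benjamini-Hochberg adjustment for 4838 peaks. The adjusted p-values ran from 5.47e-244 for peak 2 to 3.90e-11 for peak 4. In the whole list 9 peaks (0.186%) passed in this direction and 4 (0.0827%) in the other. The remaining 4 of the 9, named after their values were seen, were 3 peaks in PLEC, which encodes the cytoskeletal linker plectin, and 1 in EEF1G, which encodes a subunit of the elongation factor of translation.

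Counting error is small at this depth, so AKT1 was also set beside the spread between other peaks. That spread includes differences between RNAs and is not the error of the AKT1 fold, which 1 library per condition cannot give. The median fold fell with depth, from 2.12 over the 2907 peaks outside AKT1 with at least 30 immunoprecipitate reads to 2.05 over 1049 peaks with at least 100, 2.01 over 243 with at least 300 and 1.93 over 22 with at least 1000. Among the 22 deepest peaks the SD of the log2 fold was 0.18, and AKT1 lay at -0.36 log2 units from their median, with 1 of the 22 (in PLEC, at 1.17) below it. Among the 243 peaks, 2 had a fold below that of AKT1 and 14 a fold below that of its highest peak. Over all peaks outside AKT1 its fold was at the percentile 8.67, and at 1.91 among those with at least 100 reads. Summed by gene, AKT1 had the second lowest fold of the 80 genes with at least 1000 immunoprecipitate reads, after PLEC with 1.28. Genes that share a peak were counted separately among the 80.

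**Figure D3:**
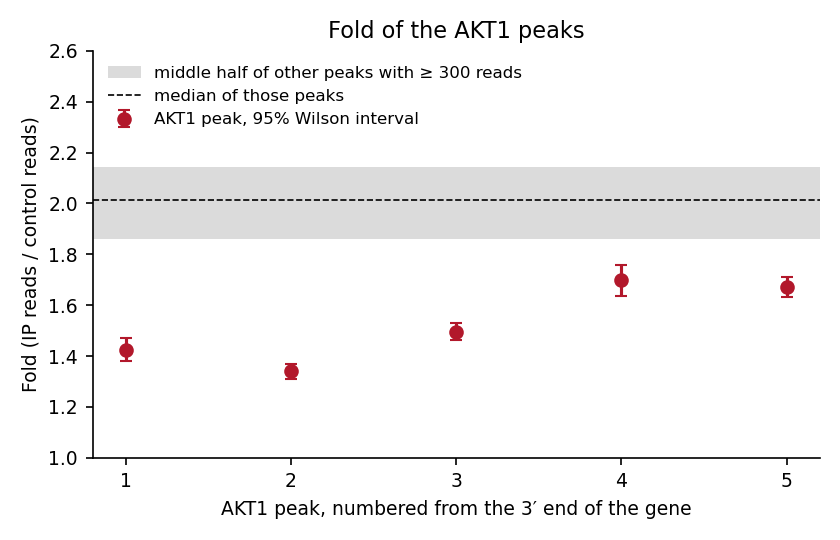
Fold (immunoprecipitate over control reads, y axis) of the 5 AKT1 peaks, numbered from the 3′ end of the gene (x axis), with 95% Wilson intervals that cover counting error only; the dashed line is the median (2.01) and the band the middle quartiles (1.86 to 2.14) of the 243 other peaks with at least 300 reads. All 5 points lie below the band, and peaks 4 and 5 lie above peaks 1 to 3.

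Within AKT1 the fold was not uniform. It was lowest in peaks 1 and 2, nearest the 3′ end, and highest in peaks 4 and 5. Of 10 pairs of peaks, 9 differed in their ratio of immunoprecipitate to control (two-sided Fisher's exact test, Benjamini-Hochberg adjusted over the 10 pairs). Peak 4 was 1.27 times peak 2 (95% interval 1.21 to 1.32, exact test, adjusted p = 2.80e-27), the widest difference. Peak 5 was 1.17 times peak 1 (1.13 to 1.22, exact test, adjusted p = 2.66e-15). For peaks 4 and 5 no difference was detectable, with a ratio of 0.985 (0.944 to 1.03, exact test, adjusted p = 0.501).

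Folds also varied inside other transcripts of the list. In the 88 other genes with at least 3 peaks of at least 100 reads, the highest fold was 1.34 times the lowest at the median (range 1.07 to 1.86), and 31 of them had a smaller ratio than the 1.27 of AKT1. Those peaks have fewer reads and more counting error. In the 14 genes with at least 3 peaks of at least 300 reads the median ratio was 1.22 (range 1.08 to 1.69), with 11 below AKT1. In 67 of the 88 genes whose strand the promoter table gives, the peak nearest the 3′ end had a lower fold than the peak nearest the start in 33, and the median ratio of both was 1.01. In AKT1 it was 0.852. Some of these genes overlap and were counted separately on the same peaks, so they are not all independent. Where such genes lie on opposite strands, the same peaks enter in both orders, which moves the count and the median towards no difference. The cause of the order within AKT1 was not tested.

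The absence of AKT1 from the WT list is not a measurement of its reads there. That list has 0 peaks on the plus label of chromosome 14, for any gene, and 1 on the minus label. In the E17K list, conversely, chromosome 14 has 5 peaks, all of them in AKT1 and all labelled plus, so that no neighbouring gene on either side can be set beside it. The tables used here hold 251 protein-coding genes on the minus strand of that chromosome, and AKT1 is the only gene among them with a peak. The lowest peak listed differed between strand labels. On the plus label of chromosome 14 the peak with the fewest immunoprecipitate reads held 7895. On the 26 other labels the lowest peak held 32.5 reads at the median, and at most 545 (chromosome 15, plus). That lowest AKT1 peak also held 1.52 times the reads of the highest peak outside AKT1 in the E17K list. A comparison of AKT1 reads between the mutant and the wild-type plasmid was therefore not made.

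**Figure D4:**
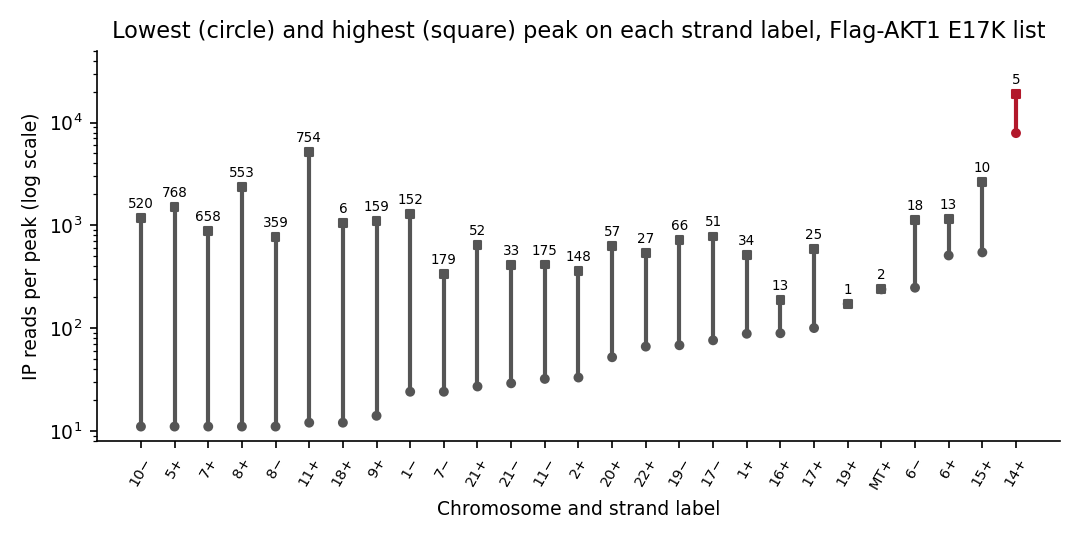
Immunoprecipitate reads of the lowest (circle) and the highest peak (square) on each of the 27 chromosome and strand labels of the E17K list (y axis, log scale), ordered by the lowest, with the number of peaks above each. The plus label of chromosome 14 (red), with the 5 AKT1 peaks, begins at 7895 reads, above the highest peak of every other label.

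With AKT1 alone on its label, the fold of AKT1 and any property of that label cannot be told apart. The median fold of the other 26 labels ran from 1.75 to 2.44, and 0 of them lay below the 1.50 of AKT1. The peak caller's log odds score for the control, whose definition the lists do not give, was above 0 in 4 of the 5 AKT1 peaks and in 23.5% of the peaks outside AKT1. It was 91.8, 92.0, 98.4, -150 and 2.73 from peak 1 to peak 5, while the median outside AKT1 was -9.17. No other peak of the E17K list reached the score of peaks 1 to 3.

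Other genes of the AKT pathway, whose RNAs come from the cell only, had far fewer reads in their listed peaks. Of 51 such genes, 13 had a peak in the E17K list, with 47 peaks and 4698 immunoprecipitate reads in all, so AKT1 had 15.6 times their sum. Of the 41 whose strand the promoter table gives, 14 lay on a label without any peak in the list and 21 on a label with 10 peaks or more, 10 of which had a peak. The share of all genes with a peak on the same labels is not given here, so whether these counts are high is not known. None of the 13 genes had a peak past Fisher's exact test in either direction. Of all 4838 peaks of the list, 0.186% passed with a lower and 0.0827% with a higher ratio. For 47 peaks a count of 0 is near that share. The lowest adjusted p of the 13 genes was 0.307 (Fisher's exact test). Their median fold was 2.24 (range 1.23 to 2.98), beside 2.18 for the median peak of the list, and 2 of the 13, the lipid phosphatase gene INPPL1 (1.23, on 32 and 26 reads) and the mTORC2 subunit gene MAPKAP1 (1.44, on 23 and 16 reads), had a lower fold than AKT1.

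AKT2, a kinase of the same family, had no peak, and it lies on a strand label with 1 peak in the list. Among the upstream genes, the receptors EGFR (586 immunoprecipitate reads, 124 per kb, fold 2.09) and MET (190 reads, 103 per kb, fold 2.24) had peaks, 2 of 9 receptors and adaptors. Of 11 genes for PI3K, PDK1 and mTORC2, RICTOR, a defining subunit of mTORC2, had 167 reads in 9 peaks (69.6 per kb, fold 2.42), and MAPKAP1 was the other.

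Of the phosphatases 7 of 11 had a peak, a count that, like those of the other groups, depends on the strand labels the genes lie on. PPP2CA, a catalytic subunit of PP2A, had 993 immunoprecipitate reads (355 per kb, fold 2.24), and its paralog PPP2CB had 173 (121 per kb, fold 2.25). The scaffold subunits PPP2R1A and PPP2R1B had 291 and 27 reads (folds 1.98 and 2.45). PPP2R2A, the regulatory subunit that binds AKT1, had 343 reads (107 per kb, fold 2.66).

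Among 15 substrates only BAD, a pro-apoptotic target of AKT, had a peak, with 119 reads (145 per kb, fold 2.98). Of 3 chaperone genes HSP90AB1, an HSP90 that stabilises AKT, had 1694 reads (1152 per kb, fold 2.005), the most of the 13 genes. Per kb of listed peak, whatever its exon content, AKT1 was still 39.8 times higher. HSP90AB1 was the only pathway gene with a peak in the WT list. Its 5 peaks there held 2361 immunoprecipitate reads with a fold of 0.966, beside a median of 0.976 for that list. Of the 41 pathway genes with a known strand, 30 lay on a label without any peak in the WT list. Only 4, HSP90AB1 among them, lay on a label with 10 peaks or more, so few of these genes could appear there.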

How the data were processed

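Peak lists from 4 RIP-seq libraries of MDA-MB-231 cells were used. The deposited values are read counts per peak for the immunoprecipitate and a control, not normalized by the authors. The deposited signal columns are these counts per kb of peak, and the deposited log odds score is undefined in the lists. The p-value columns of the lists were not used. The processing notes name Bowtie2 2.2.8 and hg18, and the peak caller and filters are not given in the sources used here. Peaks were named by RefSeq gene spans of GRCh38.p14, and strands and start sites came from its promoter table.

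The fold of a peak is immunoprecipitate over control reads, with control counts of 3 or fewer set to 3. Peaks were tested singly against all remaining peaks of the list with Fisher's exact test, two-sided, in scipy 1.17.1. P-values were adjusted by the Benjamini-Hochberg method for all peaks listed, with a threshold of 0.05, and the code was tested on simulated data. The genes named are AKT1, the 5 peaks highest per kb in each list, the 5 most like AKT1, and pathway genes with a peak, apart from a few genes that are not reported here. The rule for neighbouring genes gave none. PLEC, EEF1G and AHNAK were added after their values were seen. Members, lists and tests were chosen with earlier results of these data known. Python 3.11.15, pandas 2.3.3, numpy 2.4.6 and matplotlib 3.10.9 were used.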

Additional observations from a re-analysis of the deposited data

How the results depend on the processing

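Of 22 values of 11 results under an alternative setting, 15 were classed as the same, 6 as moved and 1 as reversed. Some classed as the same still changed in size. At an adjusted p of 0.001, 7 pairs of AKT1 peaks differed in place of 9. All 5 AKT1 peaks had a lower ratio of immunoprecipitate to control reads than the reference under each alternative. These references were peaks outside AKT1, those of them with at least 100 reads, and, in an exact binomial test (two-sided), the list's median fold. The same held at an adjusted p of 0.001. Divided by the median fold of the list, the AKT1 fold was 0.688 in place of 1.50, below 1 by construction wherever a peak lies under the median, so the direction of the fold depends on the unknown library totals. In the binomial test 31 peaks of the list were called (1 with a higher, 30 with a lower ratio) in place of 13 (4 and 9). Its reference was the median fold of 2.18, whereas the reads of all peaks of the list together gave 1.95. Whether this accounts for the shift was not tested. Against peaks outside AKT1, 15 were called (2 and 13). The fold percentile of 8.67 became 1.91 among peaks with at least 100 reads and 4.55 among those with at least 1000, the latter chosen after seeing the data. With the other strand label only, 0 AKT1 peaks were left. As a share of the reads on its own strand label AKT1 had 100% in both libraries, since the label holds no other peak, and for the same reason the comparisons with other peaks of that label were not run. No paired analysis was possible because each group has 1 library. Depth does not limit the AKT1 values, but 1 library per condition does.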

Other observations

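The Flag-AKT1 WT list also has a single peak on chromosome 14, in the span of the ribosomal protein gene RPS29 on the minus label, with 5628 immunoprecipitate and 3909 control reads. It was the highest of that list per kb, at 25582 reads of the immunoprecipitate, ahead of the ribosomal protein gene RPS12 with 1261, the histone gene H2AC11 with 1171, the tubulin gene TUBB with 1127 and the ribosomal protein gene RPS18 with 1108. Its fold was 1.44, above the median of 0.976 for its list, while AKT1 lay below the median of its own. Its label is that of the gene, whereas 661 of 663 peaks of the list in protein-coding genes of a single strand had the opposite label, so the transcript behind these reads is uncertain.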
